A study of Komagataella phaffii with 15 samples.

Results

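The transcripts described here were at least 2-fold lower in the *flo8Δ* strain than in the wild-type strain of *Komagataella phaffii* at the fast growth rate, but less than 2-fold different between the strains at the slow growth rate. They were chosen from the group means of the deposited normalized counts, after adding 1 to each mean. A transcript was a member when its wild-type mean at S1 was at least 10, its log2 ratio of *flo8Δ* over wild type at S1 was −1 or lower, and its log2 ratio at S3 lay between −1 and 1. Of 5341 transcripts, 143 passed the criteria on S1. Of these, 110 were also at least 2-fold lower in *flo8Δ* at S3 and 32 were members, and 1 (the *FLO* family gene PP7435_Chr3-1237) was left out by the rule. All values of the S1 and S3 strain ratios below were therefore used to choose the members and are given as a description, without a test.

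The *flo8Δ* strain was sampled from glucose-limited chemostats at S1 (growth rate 0.1 per h) and S3 (0.05 per h). The wild-type strain CBS7435 was sampled at S1, at S3 and at S5, after the growth rate had been set back to 0.1 per h, and each of these 5 samples had 3 replicates. The *flo8Δ* strain is a single strain of CBS7435 background in which part of the promoter and the start of the reading frame of *FLO8* (PP7435_Chr4-0252) were removed, and the *flo8Δ* strain was not sequenced at S5. As one chemostat was sampled at successive points, samples of a strain may share a culture, and the p-values measure the spread between these 15 libraries only.

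In *Saccharomyces cerevisiae*, Flo8 is a transcription factor that binds promoters of flocculin genes, among them *FLO11*, and is needed for flocculation, invasive growth and pseudohyphal growth. Flocculins are cell-wall adhesins that hold cells to each other and to surfaces. *K. phaffii* carries a putative homolog of Flo8 and a *FLO* family of 13 genes. The deposited tables name the 32 members by locus tag only, and 0 of these tags matched a gene of the reference annotation used here, which is of the strain GS115. The members are therefore given by tag, without a gene name or a role, and the list of *FLO* genes was the only list of pathway genes that could be applied. None of the members is a *FLO* gene.

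Between 4163992 and 10842364 reads per library were estimated to lie behind the normalized counts, with a median of 9310698. The 2 shallowest libraries were replicate 2 of *flo8Δ* at S1 (4163992 reads) and replicate 3 of the wild type at S1 (4631896 reads). *FLO8* itself had 24.1, 28.5 and 31.9 TPM (transcript abundance corrected for length and depth) in *flo8Δ* at S1 and 36.7, 32.8 and 39.2 TPM in the wild type at S1. At S3 it averaged 32.6 ± 2.69 TPM in *flo8Δ* and 33.7 ± 0.621 TPM in the wild type (SD, n = 3 each). Reads from the part of the *FLO8* transcript that was not deleted are counted, so this level does not check the labels. *ACT1* (PP7435_Chr3-0993), which encodes actin, averaged 1705 ± 95.2 TPM in *flo8Δ* and 1727 ± 74.6 TPM in the wild type at S1. Of the *FLO* family, 4 of the 12 genes tested at S1 were called lower in *flo8Δ* (2.54% of all transcripts), and 3 of 12 at S3 (3.8% of all transcripts). *FLO5-1* (PP7435_Chr1-1389) averaged 47.5 ± 0.897 TPM in *flo8Δ* and 2156 ± 258 TPM in the wild type at S1, and *FLO400* (PP7435_Chr4-0865) 339 ± 69.4 TPM in *flo8Δ* and 3431 ± 828 TPM in the wild type at S1.

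Most of the members were still lower in *flo8Δ* at S3, by less than 2-fold. At S1 the log2 ratio of *flo8Δ* over wild type ranged from −3.06 to −1.01 with a median of −1.23, and at S3 from −0.998 to 0.78 with a median of −0.75. At S3 the ratio was below −0.5 in 27 of the 32 members, below −0.8 in 14, above −0.4 in 5 and above 0 in 1, PP7435_Chr3-0810. As TPM, the level in *flo8Δ* at S1 was 10.3% to 46.8% of the wild-type level (median 39.6%), and at S3 it was 52.0% to 174% (median 61.1%). In such bulk samples, fewer cells that carry a transcript and less of it per cell cannot be told apart. At S3, every *flo8Δ* library was below every wild-type library in 26 of the 32 members, against 22.3% of all transcripts. At S1 this held for 32 of 32, against 30.6% of all transcripts. In the limma fits, 31 of the 31 members tested were called lower in *flo8Δ* at S1, where 2.54% of all transcripts tested were called lower, and 0 higher, where 0.641% were. At S3, 1 of 31 (PP7435_Chr1-0862) was called lower, where 3.8% of all transcripts were, and 0 higher, where 0.414% were. Leaving out any single S3 library gave 2 to 4 members called lower at S3, and the count was 9 on the normalized counts less the estimated counts that the authors deposited separately, and 0 on log2 of TPM plus 1. A call needed an adjusted p under 0.05 and a change of more than 2-fold, and the rule fixed most of both counts. The label of a group of genes lower at fast growth only therefore describes a threshold, not the absence of a strain difference at slow growth.

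**Figure D1:**
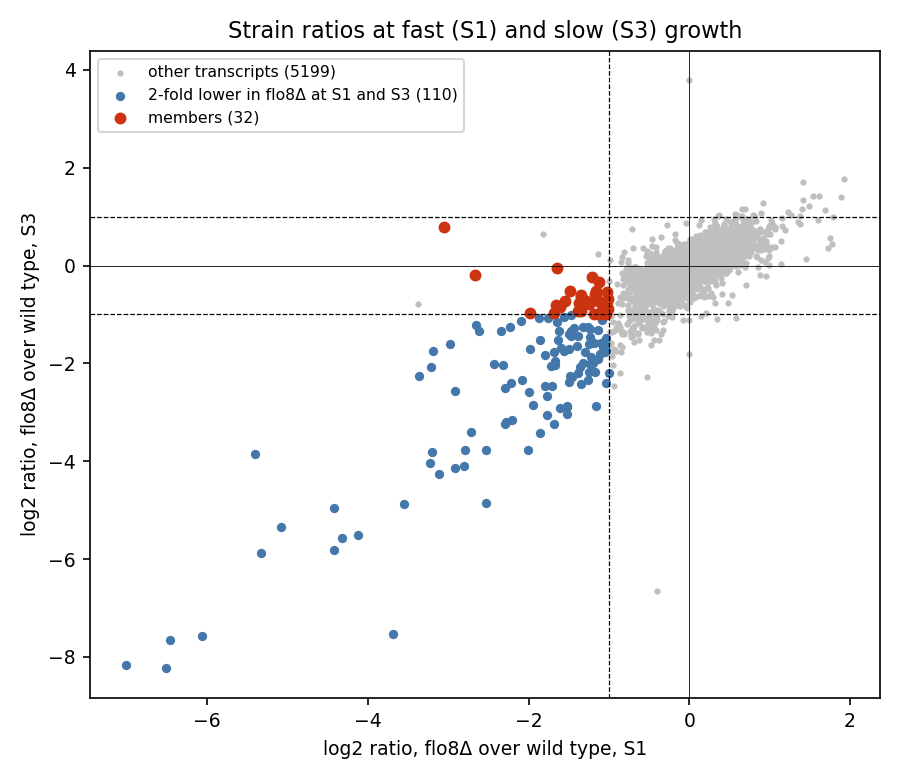
Log2 ratio of *flo8Δ* over wild type at S1 (x axis) and at S3 (y axis) for each transcript, with 1 added to each group mean; dashed lines mark a 2-fold difference. The 32 members (red) lie between the lines at S3, 14 of them below −0.8 and with a median of −0.75, next to the 110 transcripts that were lower at both (blue).

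The ratios close to both 2-fold limits ran on without a gap. The S1 ratios nearest to the threshold were −1.01 for PP7435_Chr1-1486, −1.01 for PP7435_Chr3-0100 and −1.02 for PP7435_Chr2-0980 inside it, and −0.99 for PP7435_Chr3-0845, −0.99 for PP7435_Chr3-1009 and −0.98 for PP7435_Chr1-1579 outside it. The S3 ratios nearest to −1 were −0.998 for PP7435_Chr2-0122, −0.99 for PP7435_Chr1-0700 and −0.99 for PP7435_Chr1-0862 inside it, and −1.01 for PP7435_Chr3-0996, −1.06 for PP7435_Chr4-1008 and −1.06 for PP7435_Chr3-1215 outside it. The wild-type S1 means, in contrast, left a gap around the minimum of 10. The lowest among the members were 11.7 normalized counts for PP7435_Chr4-1884, 31.0 for PP7435_Chr3-1232 and 47.4 for PP7435_Chr1-0587. The highest means of transcripts that missed the minimum were 2.54 for PP7435_Chr3-0618, 2.31 for PP7435_Chr3-2546 and 1.80 for PP7435_Chr2-0001. When each of the 12 libraries that entered the rule was left out in turn, 15 of the 32 members met the rule every time and 17 missed it at least once.

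In the wild type at S1, 12 of the members were above 100 TPM and 8 were below 20 TPM. The most abundant was PP7435_Chr2-1097, a transcript of 447 bases. It had 272, 345 and 300.1 TPM in *flo8Δ* at S1, against 847, 984 and 1158 TPM in the wild type at S1. At S3 it had 666, 571 and 673 TPM in *flo8Δ*, against 1158, 1088 and 1056 TPM in the wild type. The *flo8Δ* level at S3 was 208% of that at S1, while the wild-type libraries overlapped between S1 and S3 (mean 996 ± 156 TPM and 1101 ± 52.2 TPM), and the strains did not overlap at either growth rate. PP7435_Chr3-0100 (432 bases) had 376, 311 and 343 TPM in *flo8Δ* at S1, against 721, 779 and 698 TPM in the wild type. At S3 it had 600.3, 614 and 589.7 TPM in *flo8Δ*, against 869, 932 and 967 TPM in the wild type. Both strains had more of this transcript at S3 than at S1, and again no library of one strain reached those of the other.

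PP7435_Chr3-2447 was next in abundance, with means of 244 ± 10.5 TPM in *flo8Δ* and 675 ± 105 TPM in the wild type at S1. At S3 it averaged 339 ± 20.4 TPM in *flo8Δ* and 551 ± 72.8 TPM in the wild type (SD, n = 3 each). Here the means of the strains were nearer to each other at S3 from both sides, with overlap of the wild-type libraries between S1 and S3. PP7435_Chr2-0122 averaged 172 ± 8.19 TPM in *flo8Δ* and 377 ± 16.8 TPM in the wild type at S1, and 291 ± 23.7 TPM in *flo8Δ* and 556 ± 39.7 TPM in the wild type at S3. PP7435_Chr2-2474 averaged 96.4 ± 11.5 TPM in *flo8Δ* and 217 ± 43.9 TPM in the wild type at S1, and 157 ± 10.4 TPM in *flo8Δ* and 286 ± 13.2 TPM in the wild type at S3. In these last 2 transcripts both strains were higher at S3, and the S3 ratios of −0.998 and −0.92 lay just inside the limit of the rule.

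A different course was seen for PP7435_Chr2-0573 (1959 bases). It had 69.5, 65.2 and 69.0 TPM in *flo8Δ* at S1, against 220, 190 and 293 TPM in the wild type at S1. At S3 it had 60.6, 64.5 and 75.4 TPM in *flo8Δ*, against 119, 128 and 131 TPM in the wild type. The *flo8Δ* libraries overlapped between the growth rates and the wild-type level at S3 was 53.8% of that at S1. PP7435_Chr1-1387 (432 bases) followed the same course. It had 12.4, 11.5 and 15.0 TPM in *flo8Δ* and 44.9, 55.4 and 66.4 TPM in the wild type at S1, and 14.3, 10.5 and 14.3 TPM in *flo8Δ* and 24.5, 22.2 and 27.2 TPM in the wild type at S3. In both transcripts every *flo8Δ* library stayed below every wild-type library at S3.

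**Figure D2:**
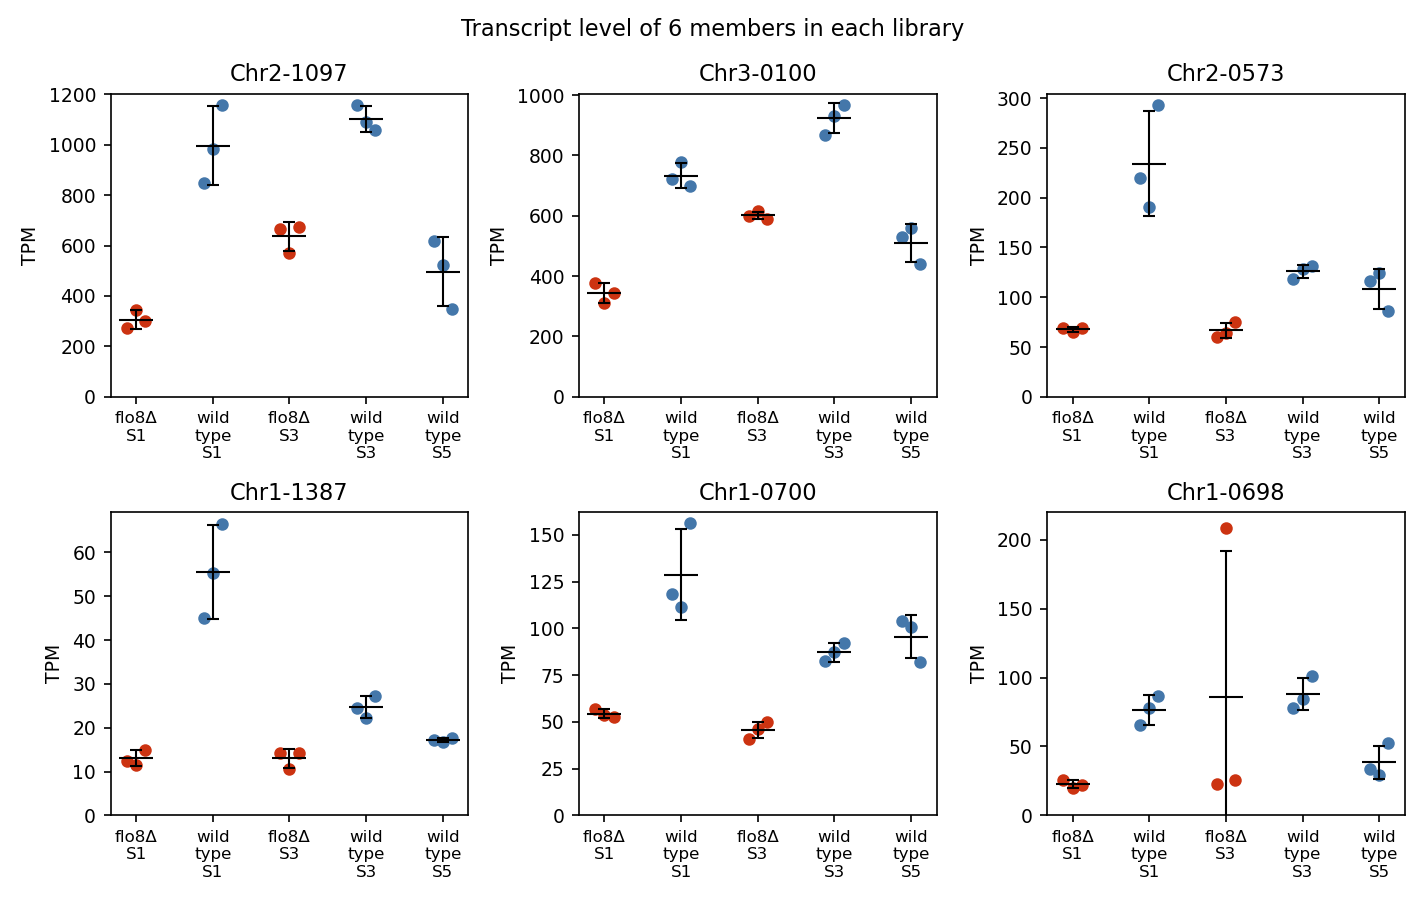
TPM of 6 members (tags without the prefix PP7435_) in each library, *flo8Δ* in red and wild type in blue; bars give the mean and SD of 3 replicates, and the axes start at 0. PP7435_Chr2-1097 and PP7435_Chr3-0100 were higher in *flo8Δ* at S3 than at S1, PP7435_Chr2-0573 and PP7435_Chr1-1387 were lower in the wild type at S3 than at S1, and for PP7435_Chr1-0698 a single *flo8Δ* S3 library of 209 TPM sets the mean.

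Across the members, the smaller S3 ratio came from *flo8Δ*, from the wild type or from both. The *flo8Δ* mean was higher at S3 than at S1 in 25 members and the wild-type mean was lower at S3 than at S1 in 24, with both in 17. A lower *flo8Δ* mean at S3 was found in 7 members, against 1569 of the 5340 transcripts with reads. On the TPM scale a higher *flo8Δ* mean at S3 was therefore common outside the members as well. The TPM median over all transcripts was itself shifted by 0.12 on the log2 scale. In the limma fits on normalized counts, 14.7% of all transcripts were higher and 16.8% lower in *flo8Δ* at S3 (adjusted p under 0.05). The wild-type mean was lower at S3 in 2893 of the 5340. Both strains were higher at S3 in 8 members and both were lower in 7. The median fold of TPM at S3 over S1 was 1.32 in *flo8Δ* and 0.762 in the wild type, against 1.08 in *flo8Δ* and 0.981 in the wild type over all transcripts. For the 110 transcripts that were lower in *flo8Δ* at both growth rates these medians were 1.10 in *flo8Δ* and 1.49 in the wild type. Members were chosen by a larger strain difference at S1 than at S3. A rise in *flo8Δ* and a fall in the wild type are therefore in part built into the choice. The 110 were chosen by a 2-fold difference at both, so their medians also reflect the choice. The same limit holds for the library counts of members that follow. Every *flo8Δ* S3 library was above every *flo8Δ* S1 library in 19 members and below in 2, against 35.6% and 9.91% of all transcripts. Every wild-type S3 library was below every wild-type S1 library in 13 members and above in 4, against 23.4% and 21.8% of all transcripts. Leaving out a library can only keep or raise such a count, and doing so raised 3 of these 4 counts by more than 1.5 times. The count of members below was 22 in the wild type without replicate 2 of S1 and 4 in *flo8Δ* without replicate 2 of S1, and the count above in the wild type was 8 without replicate 3 of S1.

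Few of these changes with growth rate passed 2-fold. In *flo8Δ*, 1 of 31 (PP7435_Chr3-1236) was called higher at S3 than at S1 where 0.32% of all transcripts were, and 0 were called lower where 0.226% were. That count was 0 without replicate 1 of *flo8Δ* at S3 and 2 without replicate 2 of *flo8Δ* at S1. In the wild type, 3 of the 32 members were called lower at S3 than at S1 (PP7435_Chr3-1236, PP7435_Chr1-1387 and PP7435_Chr3-1232) where 0.32% of all transcripts were, and 0 were called higher where 1.11% were. These comparisons use the libraries that chose the members, so no p-value is given for them. On the TPM scale the median over all transcripts was shifted by 0.12 on the log2 scale between *flo8Δ* S3 and S1, and by −0.12 between wild type S5 and S1, whereas the normalized counts of each comparison were centred near 0.

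**Figure D3:**
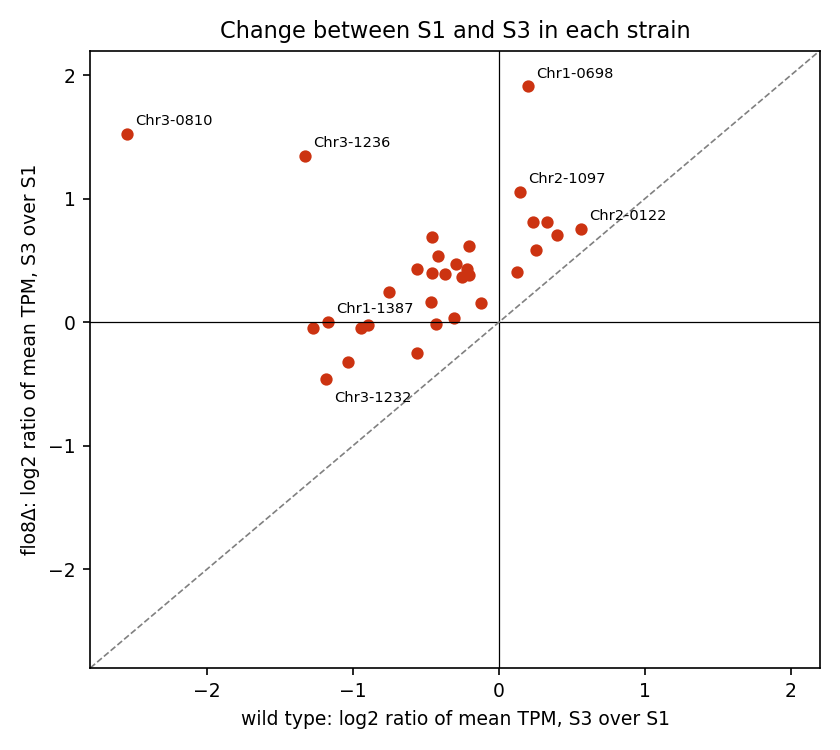
Log2 ratio of mean TPM at S3 over S1 in *flo8Δ* (y axis) and in the wild type (x axis), with 1 point per member; the dashed line marks equal change in both strains. All 32 points lie above the line, as the rule requires, 17 of them with *flo8Δ* higher and the wild type lower at S3.

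At S5, the wild-type libraries were below those of S1 in 27 of the 32 members and overlapped them in 5. The wild-type S1 libraries entered the rule as the higher side of the S1 ratio, so lower values elsewhere are in part built into the choice, and the comparison is a description without a test. The wild-type mean at S5 was below that at S1 in 32 of 32 members, at 20.8% to 86.8% of it (median 59.0%). The median wild-type level at S3 was 76.2% of that at S1, and the S5 mean was also below the S3 mean in 26 of the 32 members. Over all transcripts, every S5 library was below every wild-type S1 library in 22.1%, and this held for 54 of the 110 transcripts lower in *flo8Δ* at both growth rates. By mean TPM, S5 was below S1 in 3681 of the 5340 transcripts with reads (median TPM fold 0.92) and in 103 of these 110. The TPM median over all transcripts was shifted by −0.12 on the log2 scale. In the limma fits on normalized counts, 2.2% of all transcripts were lower and 1.34% higher at S5 than at S1 (adjusted p under 0.05). By mean TPM, S5 was below S3 in 3149 of the 5340 and in 108 of the 110. The 110 were chosen with the wild type as the higher side at both S1 and S3, so their counts are in part built in. The S5 mean was still above the *flo8Δ* S1 mean in all 32 members. As the *flo8Δ* S1 libraries entered the rule as the lower side of the S1 ratio, this too is in part built into the choice. By the call rule, 2 of the 32 members (PP7435_Chr3-1236 and PP7435_Chr1-1387) were called lower at S5 than at S1 where 0.301% of all transcripts were, and 0 were called higher where 0.0941% were. The count of 2 was 7 on log2 of TPM plus 1 and 5 after the authors' separate estimated counts were taken away. It was 0 without replicate 1 of S5, 1 without replicate 1 of the wild type at S1, and 4 without replicate 3 of S5 or replicate 2 of the wild type at S1.

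PP7435_Chr1-1387 had 17.1, 16.8 and 17.7 TPM in the wild type at S5, which was 31.0% of its wild-type S1 mean and above the 14.3, 10.5 and 14.3 TPM of *flo8Δ* at S3. PP7435_Chr3-1236 (1131 bases) had 13.5, 13.2 and 21.1 TPM in the wild type at S1, 6.32, 6.11 and 6.60 TPM at S3 and 3.84, 4.27 and 1.84 TPM at S5. For this transcript the wild-type levels at the 3 sampling points did not overlap. The smallest distance from S1 was seen for PP7435_Chr1-0483, whose S5 libraries of 290, 314 and 144 TPM overlapped the wild-type S1 libraries of 288, 221 and 351 TPM.

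**Figure D4:**
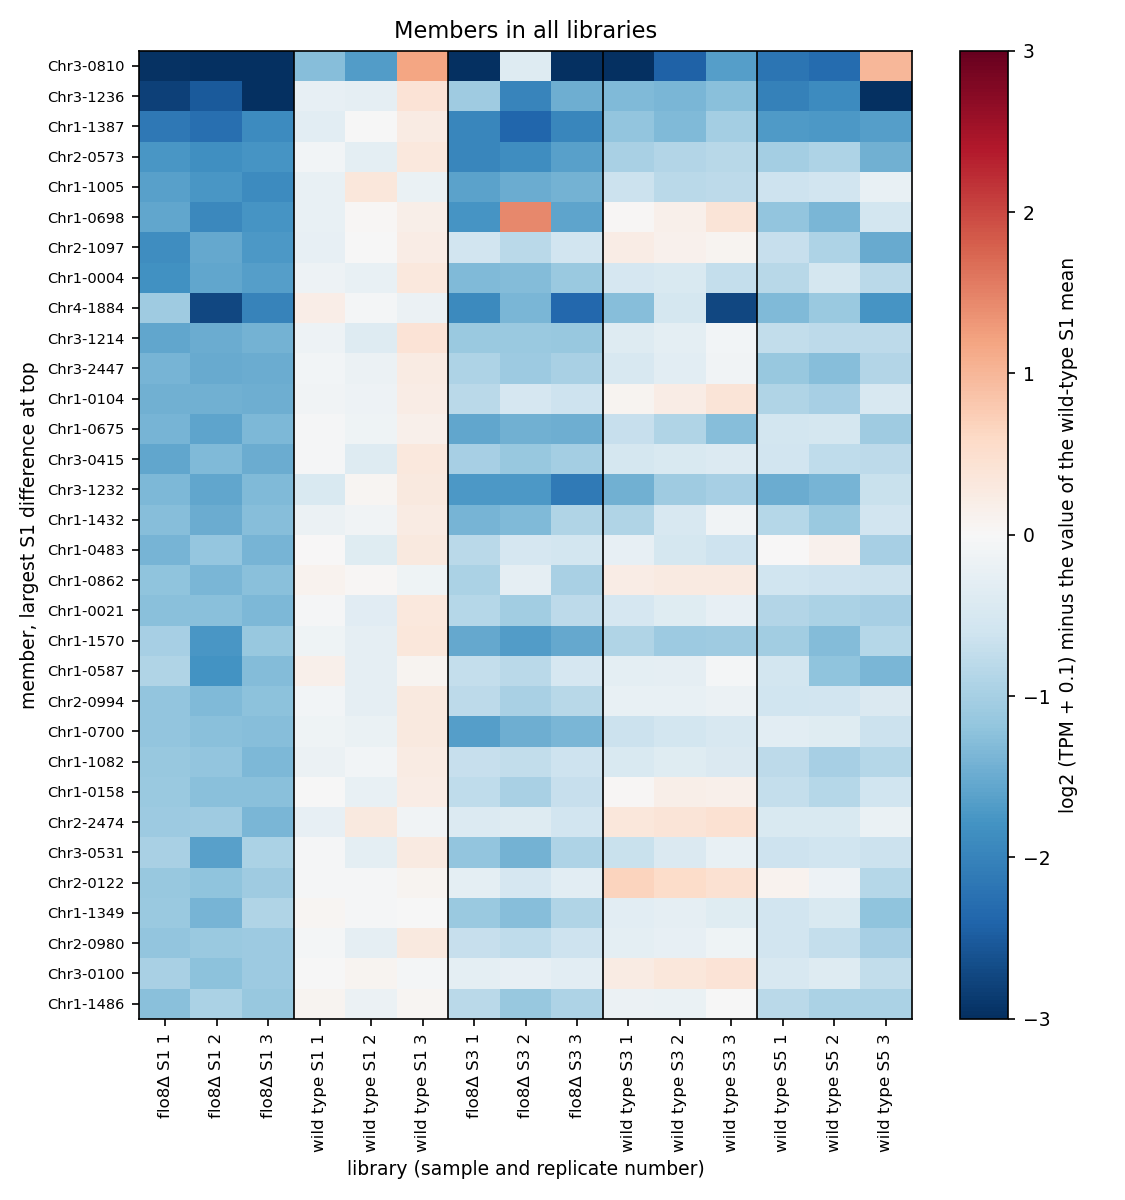
All 32 members (rows, tags without the prefix PP7435_) in all 15 libraries (columns, replicate number last), as log2 of TPM plus 0.1 minus the value of the wild-type S1 mean; colours are cut at −3 and 3. The S5 columns are below the wild-type S1 columns in every row by their means, with a median level of 59.0%. Among all transcripts with reads this held for 3681 of 5340 on the TPM scale, where the median over all transcripts was shifted by −0.12 (log2).

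The S5 libraries were not used to choose the members, but the wild-type S3 libraries entered the rule through the limits on the S3 ratio. The comparison of S5 with S3 in the wild type is therefore also a description, and no p-value is given for a member. Of the 31 members that passed the filter on low counts, 2 were called lower at S5, where 2.33% of all transcripts tested were called lower, and 0 were called higher, where 0.0565% were. Among the transcripts lower in *flo8Δ* at both growth rates, 65 of 110 were called lower at S5. The wild-type S3 libraries were the higher side of the S3 ratio that chose these 110, so their count is in part built in. With no limit on the size of the change, 17 of the 31 members were lower at S5 (adjusted p under 0.05, limma), against 20.8% of all transcripts, and 1 was higher, against 18.0% of all transcripts. The median log2 change of the members was −0.44. By level, every S5 library was below every wild-type S3 library in 20 of the 32 members and above in 1, against 29.0% and 18.1% of all transcripts. The count above was 4 without replicate 3 of S5 and 2 without replicate 3 of the wild type at S3, and leaving out a library can only keep or raise it.

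The transcripts called lower at S5 were PP7435_Chr1-0698 and PP7435_Chr2-1097. PP7435_Chr1-0698 (777 bases) had 33.6, 29.4 and 52.4 TPM at S5, against 78.2, 84.8 and 101 TPM in the wild type at S3, a log2 change of −1.16 ± 0.17 (SE). PP7435_Chr2-1097 had 617, 522 and 347 TPM at S5, against 1158, 1088 and 1056 TPM at S3, a log2 change of −1.12 ± 0.21 (SE). In both, all 3 S5 libraries were below all 3 S3 libraries. Without replicate 3 of S5 the change of PP7435_Chr2-1097 was −0.83, under 2-fold.

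Several members were lower at S5 by less than 2-fold. PP7435_Chr1-0158 had 37.8, 34.4 and 41.0 TPM at S5, against 63.2, 70.8 and 69.0 TPM at S3, a log2 change of −0.77. PP7435_Chr1-0862 had 37.8, 37.0 and 36.3 TPM at S5, against 66.6, 69.0 and 69.4 TPM at S3, a log2 change of −0.81. For these transcripts the wild type at S3 was at 109% and 119% of its S1 level, and the S5 libraries were below those of both earlier points. The log2 change was −0.95 for PP7435_Chr1-0104 and −0.79 for PP7435_Chr3-0100.

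In the other direction, only PP7435_Chr1-1005 (651 bases) was past the adjusted p, a description because the wild-type S3 libraries entered the rule. It had 51.5, 53.2 and 68.5 TPM at S5, against 50.5, 45.2 and 45.9 TPM at S3. Its log2 change was 0.35 ± 0.10 (SE), and all S5 libraries were above all S3 libraries. It missed an adjusted p of 0.05 without replicate 2 or replicate 3 of the wild type at S3 and without replicate 2 of S5. Its wild-type level at S1 was 67.6, 101 and 69.7 TPM. The S5 mean lay between those of S3 and S1, and the S5 libraries overlapped those of S1. PP7435_Chr1-0700 had 104, 101 and 82.2 TPM at S5, against 82.3, 87.1 and 92.2 TPM at S3, and its libraries overlapped (log2 change 0.20 ± 0.12, SE).

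For 2 members the S3 ratio rested on a single library. PP7435_Chr1-0698 had 22.5, 209 and 25.5 TPM in *flo8Δ* at S3, against 78.2, 84.8 and 101 TPM in the wild type. Replicate 2 of *flo8Δ* was above every wild-type library and the other two were below every one, so that the ratio of means was −0.06, and without replicate 2 it was −1.96. PP7435_Chr3-0810 (2019 bases) had 0.291, 6.15 and 0.777 TPM in *flo8Δ* at S3, against 0.217, 1.41 and 2.51 TPM in the wild type, and its S3 ratio of 0.78 became −1.39 without replicate 2 of *flo8Δ*. At S1 the same transcript had 0.950, 0.654 and 0.897 TPM in *flo8Δ* and 3.29, 2.46 and 18.4 TPM in the wild type, where replicate 3 stood apart. Without that library its S1 ratio was −1.67 rather than −3.06, and at S5 it had 1.69, 1.55 and 16.2 TPM, with replicate 3 again the highest. Without replicate 2 of *flo8Δ* at S3, PP7435_Chr1-0862, PP7435_Chr1-0700 and PP7435_Chr1-0104 also had S3 ratios beyond −1 (−1.30, −1.03 and −1.03) and 27 transcripts met the rule. Replicate 2 of *flo8Δ* at S3 was the highest of its group in 9 of the 32 members (28.1%), against 9.62% of all transcripts.

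The shallow replicate 3 of the wild type at S1 was the highest of its group in 24 of the 32 members (75.0%), against 59.7% of all transcripts. Without it, 30 of the 32 members met the rule. PP7435_Chr4-1884, the shortest member at 135 bases, rested on few reads. It had an estimated 7, 1 and 4 reads in *flo8Δ* and 19, 16 and 6 reads in the wild type at S1, and 4, 6 and 3 reads in *flo8Δ* and 6, 10 and 2 reads in the wild type at S3. Its strains overlapped at S3.

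The authors also deposited estimated counts per library, made with a strand setting, that came to between 5.06% and 6.11% of the reads behind the normalized counts. Relative to the reads of the same transcript, they came to a median of 9.01% over the members, against 2.80% over all transcripts and 4.31% over those lower in *flo8Δ* at both growth rates. This share was over 20% in 11 members and at most 57.4%. Over all transcripts it was above 100% in 2, so the estimated counts are not part of the reads of every transcript. At S1 the share was higher in *flo8Δ* than in the wild type in 22 of the 32 members. In PP7435_Chr1-1387 it was 97.4% in *flo8Δ* and 13.2% in the wild type, in PP7435_Chr3-1236 94.3% in *flo8Δ* and 9.43% in the wild type, and in PP7435_Chr1-1005 89.7% in *flo8Δ* and 30.6% in the wild type. For these 3 transcripts the estimated counts thus came close to all the reads that *flo8Δ* had.

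When the estimated counts were taken away, with values below 0 set to 0, the ratios of *flo8Δ* over wild type at S1 and S3 were −6.38 and −5.08 for PP7435_Chr1-1387, −6.01 and −3.999 for PP7435_Chr3-1236, and −4.45 and −2.84 for PP7435_Chr1-1005. These 3 transcripts were then lower in *flo8Δ* at both growth rates by more than the rule allows at S3. The opposite was seen in PP7435_Chr3-1214, PP7435_Chr1-1432 and PP7435_Chr1-1486, where the share at S1 was 21.8%, 32.3% and 3.99% in *flo8Δ* and 74.5%, 69.9% and 52.1% in the wild type. Without the estimated counts, their S1 ratios were 0.36, −0.04 and 0.00, so that no lower level in *flo8Δ* remained. The rule gave 37 transcripts on the remaining counts, of which 21 were members. The share was under 5% in 14 members, whose S1 ratios ranged from −3.06 to −1.01 and S3 ratios from −0.99 to 0.78. Whether the normalized counts separate reads of a transcript from reads of an overlapping transcript on the other strand is not given in the sources used here and was not tested.

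**Figure D5:**
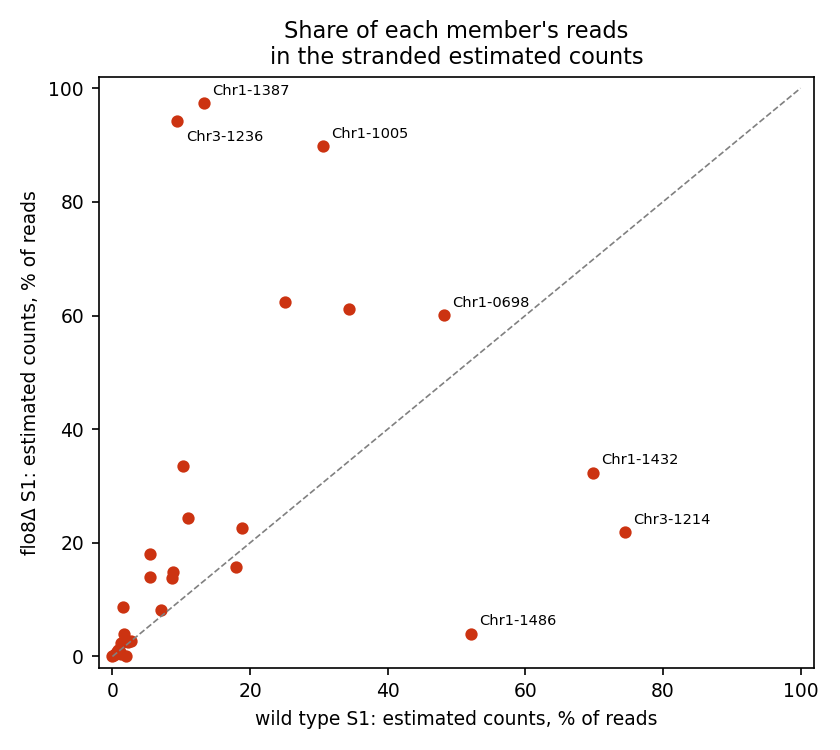
Estimated counts made with a strand setting as a percentage of the reads of each member at S1, in *flo8Δ* (y axis) and in the wild type (x axis), with 1 point per member; the dashed line marks equal shares. PP7435_Chr1-1387, PP7435_Chr3-1236 and PP7435_Chr1-1005 stand at 89.7% to 97.4% in *flo8Δ*, and PP7435_Chr3-1214, PP7435_Chr1-1432 and PP7435_Chr1-1486 at 52.1% to 74.5% in the wild type.

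By their tags, 17 of the 32 members (53.1%) were on chromosome 1, against 30.4% of all transcripts, and 1 (3.13%) was on chromosome 4, against 19.6%. Chromosome 2 held 6 members and chromosome 3 held 8. The members were 135 to 3054 bases long with a median of 1102.5 bases, against 1170 over all transcripts. Neighbours were counted among the members and the 110 transcripts lower in *flo8Δ* at both growth rates. Within 5 tag numbers of such a neighbour lay 10 members (31.2%), against 35.5% of the 110 transcripts and 17.4% of the 5183 transcripts tagged by chromosome that were in neither set. For directly neighbouring tags these shares were 12.5% of the members, 24.5% of the 110 transcripts and 3.74% of the others. Of the 10 members within 5 tag numbers, PP7435_Chr1-1387 has a tag close to that of *FLO5-1* (PP7435_Chr1-1389). PP7435_Chr3-1236 has the tag before PP7435_Chr3-1237, which was in neither set and was not counted as a neighbour. PP7435_Chr3-1237 averaged 3.13 ± 0.752 TPM in *flo8Δ* and 36.0 ± 9.18 TPM in the wild type at S1, and 7.89 ± 1.84 TPM in *flo8Δ* and 13.0 ± 3.95 TPM in the wild type at S3. PP7435_Chr1-0698 and PP7435_Chr1-0700 have tags that differ by 2. Tag numbers stand for order along a chromosome only as far as the annotation numbered the genes in order, which was not checked here, and coordinates were not used.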

How the data were processed

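Poly-A RNA of 15 chemostat samples (5 samples with 3 replicates each, described as biological replicates in the paper) was sequenced as single reads. The authors trimmed the reads with Trim Galore 0.4.2, quantified them with kallisto 0.43.1 and normalized them with DESeq2 1.14.1 within each sample comparison, which gave 6 deposited tables of 6 libraries each. The deposited values are normalized counts, handled here as a signal and not as raw counts, and all 36 columns were used. The number of columns from other series was 0. The authors also deposited expected counts (kallisto estimated counts, made with a strand setting) with transcript lengths and effective lengths per library.

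The members and lists were chosen with earlier results of these data known. TPM were computed as normalized count per effective length, scaled to an equal sum in each library. They differed by at most 0.026% between tables holding the same library. Reads per library were estimated as the column total divided by the smallest step between low values; 100% of these low values lay within 0.02 of a whole multiple, but there were only 34 to 80 of them per library, so no count test was run and the main test was limma. Intervals from reads cover counting error only.

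For the tests, a pseudocount of 1 was added, log2 was taken, and limma 3.58.1 was run on each table separately with a trended prior (R 4.3.3). A transcript was tested where 3 or more libraries held 10 or more normalized counts. Benjamini-Hochberg adjustment covered all transcripts tested, and a call needed an adjusted p under 0.05 with a log2 change beyond 1, as in the study. Each comparison was fitted on its own samples. The procedure was tested on simulated data with changes well beyond 2-fold, placed only in transcripts without low counts. That test did not cover smaller changes or transcripts with few reads. Pairing by replicate number was judged from how libraries of the same number deviated from their group means. The correlation was over 0.1 for all 3 pairs only between wild type S5 and S1 (0.146, 0.178 and 0.189), where the pairing comes from these correlations and not from the labels.

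Transcripts named were the 12 members with the largest S1 ratio, the 12 most abundant in the wild type at S1, the 3 nearest each threshold on either side, and the members called between S5 and S3, beside *FLO8*, *ACT1* and the *FLO* genes; those without values in the text are in the heat map, and PP7435_Chr1-0158 and PP7435_Chr1-1432 were named after their values were seen. The paper's text and its map of the *FLO* genes give different chromosomes for *FLO5-1* and *FLO5-2*. The tags were taken with the chromosomes of the map, 1 for *FLO5-1* and 3 for *FLO5-2*. With these tags the mean TPM of both genes equal, when rounded, those that the paper prints for them in every sample. How near a tag is to that of *FLO5-1* rests on this tag. Lists of mating, meiosis and cell wall genes and promoter motifs could not be applied without a match of the tags to names or promoters. Alternatives changed the pseudocount, the filter, the average, the scale, the pairing and the reads used, or left out single libraries. qRT-PCR, FAIRE-Seq and microscopy were not analysed here.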

Additional observations from a re-analysis of the deposited data

How the results depend on the processing

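The number of members was 32, with 34 at a pseudocount of 0.1 (32 shared), 29 at 10 (28 shared), 28 with medians in place of means (24 shared), 37 on counts less the estimated counts (21 shared) and 27 to 34 when single libraries were left out. Members called lower in *flo8Δ* at S3 numbered 1, against 0 on log2 of TPM plus 1, 9 less the estimated counts and 2 to 4 without single libraries. Over all transcripts, 22 were called higher in *flo8Δ* than in the wild type at S3, against 16 to 34 without single libraries. Between wild type S3 and S1, 1 member was called higher less the estimated counts and 0 otherwise, and the count over all transcripts called higher ranged from 34 to 116 without single libraries. Between wild type S5 and S1, members called lower numbered 2, against 7 on log2 of TPM plus 1, 5 less the estimated counts and 0 to 4 without single libraries. Over all transcripts, 16 were called lower there, against 25 on log2 of TPM plus 1 and 0 to 40 without single libraries, and 5 were called higher, against 9 with the replicate block, 8 less the estimated counts and 0 to 13 without single libraries.

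Between wild type S5 and S3, 1 member, PP7435_Chr3-0810, was called higher with the replicate block and 0 without it. Over all transcripts 3 were called higher there, against 6 with the replicate block, 1 on log2 of TPM plus 1, 6 less the estimated counts and 1 to 5 without single libraries. Between *flo8Δ* S3 and S1, members called higher numbered 1, against 3 on log2 of TPM plus 1, 0 less the estimated counts and 0 to 2 without single libraries. The cause of these changes was not tested. The block also moved the *FLO* genes called higher to 3 from 1 between wild type S5 and S1 and to 1 from 0 between S5 and S3. It moved no other count of members or of all transcripts by more than 1.5 times. Between wild type S5 and S3 the correlations of same-numbered libraries were 0.428, −0.186 and 0.569. Whether same-numbered libraries came from the same culture is not given by the labels. Of the 18 members past an adjusted p of 0.05 between S5 and S3, 12 stayed past it under all 12 alternatives, PP7435_Chr1-0698 and PP7435_Chr2-1097 among them, and 0 changed direction. PP7435_Chr1-1005 lost it in 4. As the wild-type S3 libraries entered the rule, these counts describe stability and are no test of a member. TPM with annotated lengths moved the median of the members at wild type S1 by less than the spread between replicates.

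The planned edgeR and DESeq2 fits on reads were not run, because too few low values per column were available to accept the reads as recovered. The alternatives on TPM plus 1 and on counts less the estimated counts in limma were chosen after seeing the data. PP7435_Chr4-1884 had the lowest wild-type S1 mean among the members, 11.7 normalized counts.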
